A study of Mus musculus with 11 samples.

Results

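The data describe 9 complement genes in the brains of mice bred to delete Dicer, the RNase that cuts miRNA precursors, in forebrain neurons. They are the subunits of C1q (C1qa, C1qb and C1qc), the central components C3 and C4b, the anaphylatoxin receptors C3ar1 and C5ar1, and the inhibitors Serping1 and Cd59a. The genes were chosen by name, as rows of the deposited count table whose Ensembl identifier carries 1 of these 9 symbols, and all 9 were found among the 39017 genes of the table. The knockout (KO) mice were Camk2a-Cre;Dicer flox/flox animals, in which Cre is driven by the Camk2a promoter, a promoter of forebrain excitatory neurons. The genotype of the control animals is given only as control, so whether they carry Cre or the floxed allele is not known here. The neocortex gave libraries from KO animals D5130, D5132 and D5133 and from control animals D5129, D5134 and D5135. The hippocampal CA1 region gave libraries from KO animals D5130 and D5133 and from control animals D5134, D5135 and D5138. All animals were 13 to 14 weeks old, and all were male except the CA1 control D5138.

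Complement is a cascade of plasma and tissue proteins that tags surfaces for clearance. C1q, built of A, B and C chains, binds a surface and starts the classical pathway. With its proteases it cleaves C4, and the cascade then cleaves C3, whose fragments mark the surface and signal through receptors such as C3ar1, while C5a signals through C5ar1. Serping1 (C1 inhibitor) blocks the C1 proteases, and Cd59a blocks the membrane attack complex at the end of the cascade. In the brain C1q is made mostly by microglia, C4b and C3 are raised in reactive astrocytes, and the pathway is known for tagging synapses that microglia remove.

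The libraries held 43144097 to 58329441 gene counts for the neocortex and 24806581 to 35684618 for the CA1. Counts are given as CPM, the share of a library's counts scaled by TMM. The 5 neocortex identity genes summed to 529 to 665 CPM in the neocortex libraries and to 163 to 187 CPM in the CA1 libraries, and the 4 CA1 identity genes summed to 310.02 to 510 CPM in the CA1 libraries and to 177 to 247 CPM in the neocortex libraries. Dicer1 itself was counted at 59.0 to 63.3 CPM in neocortex KO libraries and 59.3 to 66.5 CPM in their controls, and at 71.6 to 73.3 CPM in CA1 KO libraries and 68.7 to 75.2 CPM in their controls. These counts cover the whole gene and do not test for loss of the floxed part. ERCC spike-in RNAs, added to the neocortex libraries alone, split those libraries by their make-up into a set of D5130, D5132 and D5129 and a set of D5133, D5134 and D5135, each with both genotypes. The kit, the depth and the spike-ins differed between the tissues and cannot be told apart from the tissue.

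The C1q genes lie side by side on the minus strand of chromosome 4 (GRCm38), with C1qb at 136880129 to 136886187, C1qc at 136889804 to 136893065 and C1qa at 136895917 to 136898803. C4b is on chromosome 17 at 34728380 to 34743882 and C3 on the same chromosome at 57203970 to 57228136. Of the receptors, C3ar1 is on chromosome 6 at 122847138 to 122856161 and C5ar1 on chromosome 7 at 16246743 to 16259540. Serping1 (84765387 to 84775444) and Cd59a (104095801 to 104115354) are on chromosome 2. All 9 are annotated as protein-coding, and Cd59a alone lies on the plus strand. Mir6978, inside C3, was the only annotated gene overlapping any of them.

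The 250 bases before the start were available from RefSeq (GRCm38.p6) for 6 of the 9 genes and not for C1qa, C4b and Serping1. RefSeq starts differ from the gene ends given above for some genes. The stretches of C1qc, C3ar1 and C5ar1 lie partly inside those genes as placed above. The stretches of C1qb and C1qc are shown because these neighbours moved together in both tissues, that of C3ar1 because it is the receptor that rose in the neocortex, and that of C3 because its fold change in the CA1 rested on 1 library. Capitals mark matches, on either strand, to 4 motifs. They are the core bound by the myeloid factor PU.1, searched as GAGGAA, and the motif of the C/EBP factors, which act in acute inflammation, searched as TTGCGNAA. The motif of the AP-1 dimers of Fos and Jun proteins was searched as TGANTCA, and the TATA box of core promoters was searched for with the letters TATAAA on either strand.
C1qb (chr4:136886201-136886450, minus strand): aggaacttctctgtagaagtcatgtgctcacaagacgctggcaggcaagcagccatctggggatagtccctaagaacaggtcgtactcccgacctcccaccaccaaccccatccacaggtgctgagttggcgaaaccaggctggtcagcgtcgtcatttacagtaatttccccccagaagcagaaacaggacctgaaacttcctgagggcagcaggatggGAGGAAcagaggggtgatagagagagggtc
C1qc (chr4:136892915-136893164, minus strand): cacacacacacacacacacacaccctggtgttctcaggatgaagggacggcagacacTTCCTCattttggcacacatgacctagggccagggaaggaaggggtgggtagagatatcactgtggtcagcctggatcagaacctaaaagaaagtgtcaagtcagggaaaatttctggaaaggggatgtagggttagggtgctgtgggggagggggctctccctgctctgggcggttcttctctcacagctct
C3ar1 (chr6:122856158-122856407, minus strand): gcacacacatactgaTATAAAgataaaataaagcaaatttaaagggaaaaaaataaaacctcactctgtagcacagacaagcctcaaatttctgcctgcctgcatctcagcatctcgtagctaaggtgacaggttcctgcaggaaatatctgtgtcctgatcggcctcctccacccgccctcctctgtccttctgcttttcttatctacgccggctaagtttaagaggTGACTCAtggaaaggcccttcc
C3 (chr17:57228137-57228386, minus strand): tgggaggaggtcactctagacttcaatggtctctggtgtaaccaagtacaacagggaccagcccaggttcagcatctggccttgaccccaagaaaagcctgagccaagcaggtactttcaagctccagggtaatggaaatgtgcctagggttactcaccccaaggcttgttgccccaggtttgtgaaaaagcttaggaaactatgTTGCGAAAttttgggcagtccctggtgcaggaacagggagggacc
The PU.1-type core was found in C1qb, in C1qc (on the opposite strand) and in Cd59a, 3 of the 6 stretches, and in 23.25% of the same stretches of all 32851 RefSeq starts. The C/EBP-type match was found in C3, and 0.67% of all stretches hold one. The AP-1-type match was found in C3ar1, as in 6.75% of all stretches, and the TATA box match in C3ar1, as in 12.4%. The STAT-type motif TTCNNNGAA, present in 7.02% of all stretches, was found in 0 of the 6. No match overlapped another in these stretches, and a match describes the letters and not a bound site.

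Levels were compared between genes per length, as RPKM, which divides CPM by the gene's exon length in kilobases. That length joins the exons of all transcripts. It is 1931 bases for C1qc, whose longest coding transcript has 1203, so the RPKM of C1qc depends on this choice. For C1qa (1040 bases) and C1qb (1088 bases) the lengths agree. In mean CPM, C1qc and C1qa had 61.2 and 57.8 in neocortex KO libraries and 48.7 and 48.1 in their controls. They had 57.4 and 61.5 in CA1 KO libraries and 27.8 and 31.9 in their controls. In neocortex KO libraries C1qb led at 65.0 ± 5.26 RPKM (SD, n = 3), with C1qa at 55.6 ± 5.73 and C1qc at 31.7 ± 1.44 RPKM. In neocortex control libraries C1qb and C1qa were level, at 46.4 ± 4.82 and 46.3 ± 3.88 RPKM (SD, n = 3), and C1qc had 25.2 ± 1.94 RPKM. The ranges of C1qb and C1qa overlapped in both neocortex groups and in CA1 controls, and were apart in CA1 KO libraries. In every group the C1q genes stood above the other 6. C4b came next in 3 of the groups, at 10.2 ± 2.13 RPKM in CA1 KO libraries (n = 2) and 3.51 ± 0.15 RPKM in CA1 controls (n = 3), and its range overlapped that of Serping1 in both neocortex groups. C3 was lowest in 3 of the groups, at 0.069 ± 0.0096 RPKM in neocortex KO libraries and 0.061 ± 0.014 RPKM in neocortex controls, and C5ar1 was lowest in CA1 KO libraries, at 0.275 ± 0.126 RPKM, where its range overlapped that of C3.

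**Figure D1:**
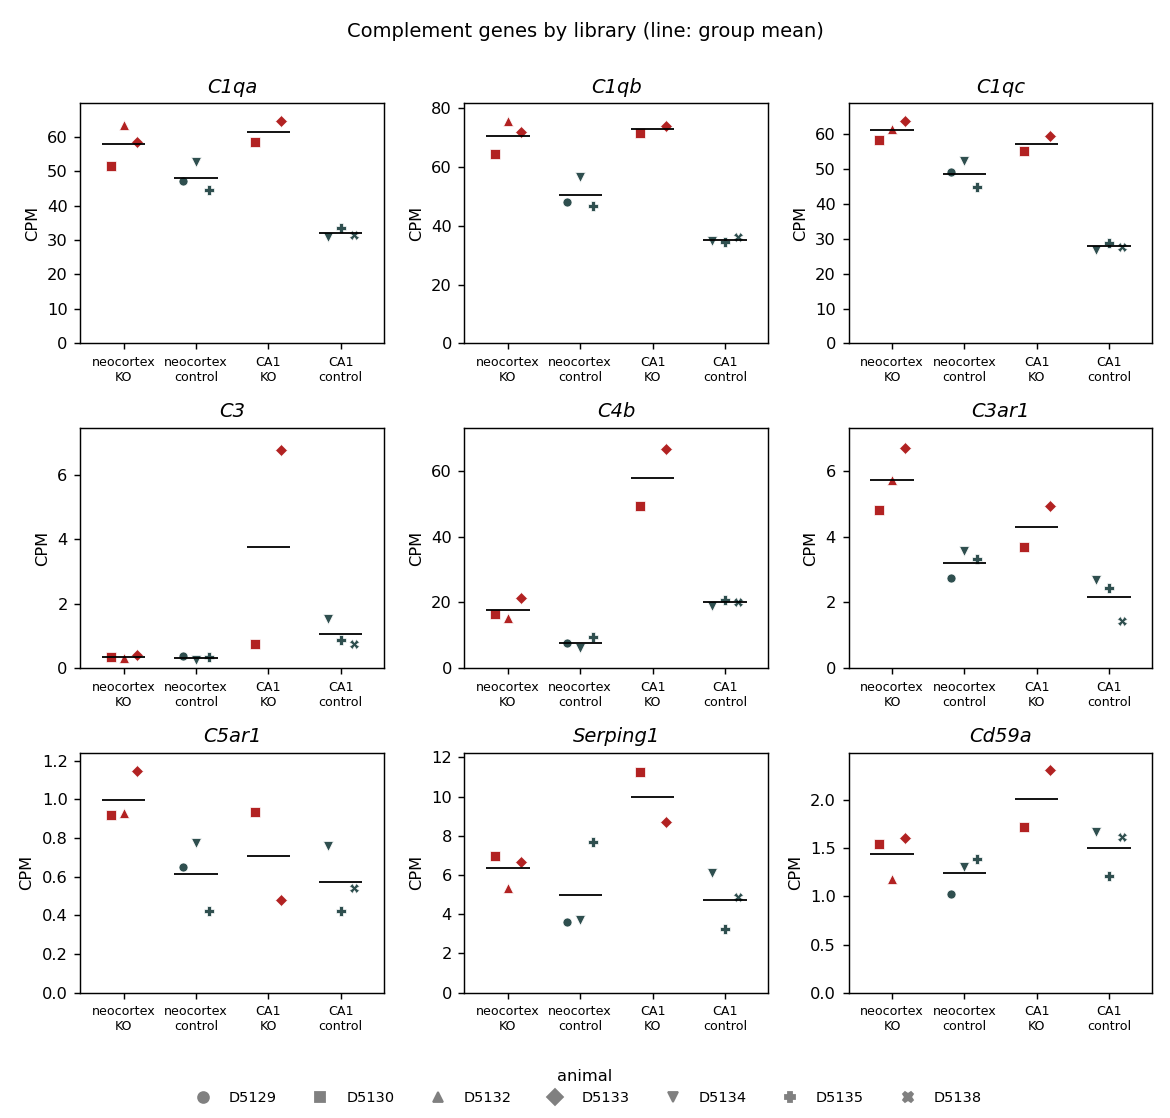
CPM of each of the 9 complement genes (y axis, from 0) in every library, with KO groups (red) left of their controls (dark) for the neocortex and then the CA1, symbols for animals and a line at the group mean. The C1q genes and C4b in the CA1 show KO libraries well above controls, and C3 in the CA1 shows 1 KO library at 6.77 CPM above all the others.

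In the neocortex, C1qb, C1qc, C4b and C3ar1 rose in KO libraries, C4b the most of the 4. Of the 9 genes, 4 were higher and 0 lower by edgeR's quasi-likelihood test at an adjusted p under 0.05, with 6 higher and 0 lower at an unadjusted p under 0.05 and 4 higher by DESeq2. Among all 16971 genes tested, edgeR called 1.51% higher and 1.20% lower, and 3049 had an unadjusted p under 0.05 in either direction. DESeq2 called 466 of all genes higher and 432 lower. Every KO library lay above every control for 5 of the 9 genes, against 11.6% of all genes. All 9 fold changes were positive, with a median log2 fold change of 0.34 against 0.0021 over all genes tested. In these bulk samples more cells of a type and more RNA per cell cannot be told apart.

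C1qb, the B chain of C1q, had 64.5, 75.8 and 72.0 CPM in KO libraries D5130, D5132 and D5133, against 48.1, 56.5 and 46.9 CPM in controls D5129, D5134 and D5135. The lowest KO library was above the highest control, and the log2 fold change was 0.49 (edgeR adjusted p = 0.0123, SE 0.082). C1qc, the C chain, had 58.3, 61.5 and 63.8 CPM in the same KO libraries, against 49.2, 52.2 and 44.8 CPM in the controls. Here too the groups did not overlap, and the log2 fold change was 0.33 (edgeR adjusted p = 0.0278, SE 0.069). C1qa, the A chain, had 51.6, 63.5 and 58.4 CPM in KO libraries, against 47.1, 52.5 and 44.6 CPM in controls. Its KO library D5130 fell just below control D5134, so the groups overlapped, and its log2 fold change of 0.27 did not pass (edgeR adjusted p = 0.118, SE 0.084).

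The share of each C1q gene in the reads of the 3 was also compared. In the neocortex C1qb gave 37.3 ± 0.4% of these reads in KO libraries and 34.3 ± 0.88% in controls (SD, n = 3 each), and C1qa gave 30.4 ± 1.06% in KO libraries and 32.7 ± 0.089% in controls. The groups did not overlap in either share, and the exact two-sided permutation test gave p = 0.1 for each, the smallest value that 3 libraries against 3 allow. The C1qc share was 32.3 ± 1.46% in KO libraries and 33.1 ± 0.86% in controls, with an exact permutation p of 0.6. In the CA1 the C1qb share was 38.04 ± 0.96% in KO libraries (n = 2) and 37.0 ± 1.26% in controls (n = 3), with overlapping libraries and an exact permutation p of 0.6. The CA1 share of C1qa was 32.1 ± 0.82% in KO libraries and 33.6 ± 0.81% in controls, without overlap (exact permutation p = 0.2), and that of C1qc was 29.9 ± 0.13% in KO libraries and 29.3 ± 0.47% in controls (exact permutation p = 0.3). The smallest p that 2 libraries against 3 allow is 0.1.

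C4b, the mouse C4 gene whose product is cleaved by the C1 proteases, had 16.6, 15.3 and 21.2 CPM in neocortex KO libraries D5130, D5132 and D5133, against 7.66, 6.04 and 9.51 CPM in controls D5129, D5134 and D5135. All KO libraries were above all controls, with a log2 fold change of 1.19 (edgeR adjusted p = 0.0119, SE 0.17). C4b shares 35.2% of its 50-base stretches with C4a, so reads could be split between them or dropped. C4a, the neighbouring copy, had a log2 fold change of 0.55 (edgeR adjusted p = 0.14, SE 0.19) and made up 16.7% to 18.1% of the summed CPM of the pair in KO libraries, against 19.8% to 33.8% in controls. C4b alone and the sum of the pair were both higher in every KO library, the sum at 18.4 to 25.5 CPM in KO libraries and 9.13 to 11.9 CPM in controls.

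C3ar1, the receptor of the C3a fragment, had 4.81, 5.72 and 6.71 CPM in neocortex KO libraries, against 2.74, 3.56 and 3.33 CPM in controls. The groups did not overlap, and the log2 fold change was 0.84 (edgeR adjusted p = 0.0199, SE 0.16). C5ar1, the receptor of C5a, had 0.92, 0.927 and 1.15 CPM in KO libraries, against 0.652, 0.773 and 0.422 CPM in controls. These groups did not overlap either, but the counts were low (47 to 67 reads in KO libraries, 20 to 35 in controls) and the log2 fold change of 0.70 did not pass (edgeR adjusted p = 0.225, SE 0.29).

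C3 was near the floor of the neocortex libraries, at 0.338, 0.316 and 0.411 CPM in KO libraries and 0.373, 0.234 and 0.337 CPM in controls, from 16 to 24 reads in KO libraries and 10 to 20 in controls. The groups overlapped, and its log2 fold change was 0.16 (edgeR adjusted p = 0.879, SE 0.37). Serping1 had 6.97, 5.35 and 6.69 CPM in KO libraries, against 3.60, 3.70 and 7.70 CPM in controls. Control D5135 was the highest of all 6 and the other 2 controls the lowest, and the log2 fold change was 0.34 (edgeR adjusted p = 0.628, SE 0.30). D5135 was also the highest neocortex library for the summed 8 meningeal fibroblast genes, at 162 CPM, against 111 to 148 CPM in KO libraries and 85.2 and 90.6 CPM in the other controls, and without it Serping1 gave 0.80 (edgeR adjusted p = 0.0232, SE 0.16). The part of these cells in the Serping1 level was not tested. Cd59a had 1.54, 1.18 and 1.61 CPM in KO libraries and 1.02, 1.31 and 1.39 CPM in controls, overlapping, with a log2 fold change of 0.22 (edgeR adjusted p = 0.67, SE 0.22).

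The neocortex calls rested on few libraries. Leaving out KO library D5133 left 0 of the 9 genes called by edgeR, leaving out control D5129 left 1, leaving out KO library D5132 left 2, and the other omissions left 3 or 4. C1qb passed in 5 of these 6 fits, C4b in 4, C3ar1 in 3 and C1qc in 1. Without D5133 the log2 fold changes were 0.47 for C1qb (adjusted p = 0.0928), 0.30 for C1qc (adjusted p = 0.185), 1.04 for C4b (adjusted p = 0.0578) and 0.72 for C3ar1 (adjusted p = 0.141), and 16 genes of the whole table were still called higher. With the ERCC make-up set as a term in the fit of all 6 libraries, 3 of the 9 genes passed, and C1qc did not (0.34, edgeR adjusted p = 0.0675). Within the ERCC set of D5130, D5132 and D5129, C4b gave 1.06 (edgeR adjusted p = 0.0217, SE 0.15) and C1qb 0.54 (edgeR adjusted p = 0.0828, SE 0.11). Within the set of D5133, D5134 and D5135, C4b gave 1.45 (edgeR adjusted p = 0.00392, SE 0.23) and C1qb 0.48 (edgeR adjusted p = 0.152, SE 0.14). C4b was the only 1 of the 9 called in either set, where 1 group has a single library that is assumed to vary like the other group. C1qc gave 0.28 in the first set and 0.40 in the other, and C3ar1 gave 0.94 in the first and 0.97 in the other, none past the threshold.

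In the CA1, all 3 C1q genes, C4b and Serping1 rose in KO libraries, with log2 fold changes of 0.94 to 1.54. Of the 9 genes, 5 were higher and 0 lower by edgeR's test, with 6 higher and 0 lower at an unadjusted p under 0.05 and 6 higher by DESeq2. Among all 18274 genes tested, edgeR called 2.47% higher and 1.41% lower, and 3159 had an unadjusted p under 0.05 in either direction. DESeq2 called 502 of all genes higher and 409 lower. Both KO libraries lay above all 3 controls for 7 of the 9 genes, against 17.4% of all genes. The median log2 fold change of the 9 was 1.04, against -0.00041 over all genes tested.

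C1qa had 58.3 and 64.7 CPM in CA1 KO libraries D5130 and D5133, against 30.9, 33.5 and 31.4 CPM in controls D5134, D5135 and D5138. C1qb had 71.7 and 74.0 CPM in the KO libraries, against 34.8, 34.5 and 36.1 CPM in the controls. C1qc had 55.3 and 59.4 CPM in the KO libraries, against 26.9, 28.9 and 27.7 CPM in the controls. In all 3 genes the controls sat within a narrow band and both KO libraries far above it. The log2 fold changes were 0.94 for C1qa (edgeR adjusted p = 2.18e-05, SE 0.079), 1.05 for C1qb (edgeR adjusted p = 9.55e-06, SE 0.07) and 1.04 for C1qc (edgeR adjusted p = 1.39e-05, SE 0.079). They stayed between 0.86 and 1.10 whichever of the 5 libraries was left out, and passed each time. In the fits without D5130 or without D5133 a single KO library remains, here and below, and it is assumed to vary like the controls.

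C4b had 49.5 and 66.7 CPM in CA1 KO libraries D5130 and D5133, against 19.0, 20.7 and 20.2 CPM in controls D5134, D5135 and D5138. Both KO libraries were far above the controls, and the log2 fold change was 1.54 (edgeR adjusted p = 1.39e-05, SE 0.11), or 1.30 to 1.74 with 1 library left out. C4a gave 0.51 (edgeR adjusted p = 0.197, SE 0.20) and made up 7.13% and 6.17% of the pair's summed CPM in KO libraries, against 10.6% to 14.6% in controls.

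C3 showed the widest scatter of the 9 genes. It had 0.76 CPM in CA1 KO library D5130 and 6.77 CPM in KO library D5133, against 1.51, 0.88 and 0.739 CPM in controls D5134, D5135 and D5138. The raw counts behind the KO values were 26 and 170 reads. D5130 lay among the controls and D5133 above them, and the log2 fold change of 1.84 did not pass (edgeR adjusted p = 0.524, SE 1.09). It was 2.72 (adjusted p = 0.00204) without D5130 and -0.44 (adjusted p = 0.768) without D5133. Its sign thus turned on D5133, and the pass without D5130 rests on that single KO library.

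C3ar1 had 3.68 and 4.94 CPM in CA1 KO libraries, against 2.69, 2.43 and 1.42 CPM in controls. The groups did not overlap, and the log2 fold change of 0.99 lay at the threshold (edgeR adjusted p = 0.0503, SE 0.26). It passed by DESeq2 (0.99, SE 0.32, adjusted p = 0.0385). C5ar1 had 0.935 and 0.478 CPM in KO libraries, against 0.757, 0.425 and 0.54 CPM in controls, overlapping, with a log2 fold change of 0.35 (edgeR adjusted p = 0.767, SE 0.45). It rests on 12 and 32 reads in the KO libraries and 14 to 20 in the controls.

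Serping1 had 11.3 and 8.73 CPM in CA1 KO libraries D5130 and D5133, against 6.09, 3.25 and 4.89 CPM in controls D5134, D5135 and D5138. The groups did not overlap, and the log2 fold change was 1.09 (edgeR adjusted p = 0.0203, SE 0.22). The call was lost without KO library D5130 (0.89, adjusted p = 0.169), without KO library D5133 (1.25, adjusted p = 0.0607) and without the female control D5138 (1.12, adjusted p = 0.108). The summed meningeal fibroblast genes, a cell type that also makes Serping1, were at 244 and 209 CPM in KO libraries, against 95.4 to 105 CPM in controls, with 4 of 8 called higher, and their part in the Serping1 level was not tested. Cd59a had 1.72 and 2.31 CPM in KO libraries and 1.67, 1.21 and 1.62 CPM in controls. The lower KO library was just above the highest control, and the log2 fold change of 0.42 did not pass (edgeR adjusted p = 0.494, SE 0.28). Cd59a shares 3.98% of its 50-base stretches with Cd59b, and the other 7 genes share none with any annotated transcript of another gene.

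**Figure D2:**
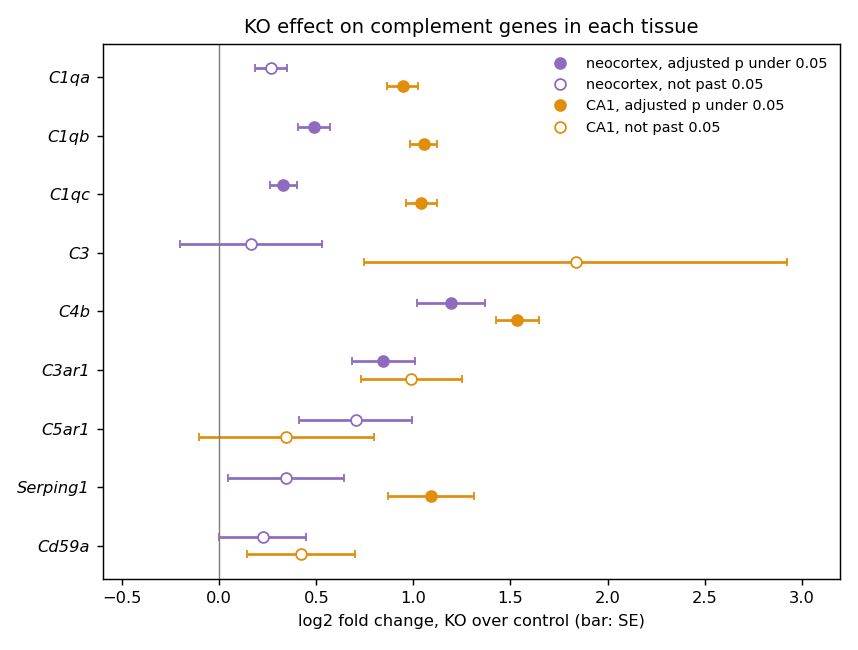
Log2 fold change of KO over control for each gene (x axis; bars are 1 SE) in the neocortex (purple, 6 libraries) and the CA1 (orange, 5 libraries), filled where the edgeR adjusted p was under 0.05. The 3 C1q genes sit near 1 in the CA1 and between 0.27 and 0.49 in the neocortex, and C3 in the CA1 has the widest bar.

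The KO effect on C1qa and C1qc was estimated as larger in the CA1 than in the neocortex, in libraries from different kits. With male libraries only, or only the animals that gave both tissues, 0 of the 9 genes passed. The difference of the log2 fold changes, CA1 minus neocortex, was tested in 1 fit of the 11 libraries. It was 0.68 for C1qa (edgeR adjusted p = 0.0371, SE 0.12) and 0.71 for C1qc (edgeR adjusted p = 0.0246, SE 0.10). Of the 9 genes, 2 passed with a larger rise in the CA1 and 0 the other way (3 and 0 by DESeq2, and 3 and 0 at an unadjusted p under 0.05). By edgeR, 0.0571% of all 19256 genes tested were called higher and 0.0364% lower. DESeq2 called more of all genes, 69 higher and 95 lower. Over all 19256 genes, 1831 had an unadjusted p under 0.05 in either direction. The median difference of the 9 was 0.57, against 0.0067 over all genes tested.

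C1qb differed by 0.57 and did not pass (edgeR adjusted p = 0.0758, SE 0.11). With the animal as a block, C1qb gave 0.66 (edgeR adjusted p = 0.011). C1qa and C1qc gave 0.75 (edgeR adjusted p = 0.00768) and 0.70 (edgeR adjusted p = 0.0112), so that 3 of the 9 passed. That fit rests on the 4 animals that gave both tissues, KO D5130 and D5133 and controls D5134 and D5135. It called 36 of all 19256 genes higher and 78 lower, against 11 and 7 in the main fit. C4b differed by 0.34 (edgeR adjusted p = 0.722, SE 0.25), C3ar1 by 0.15 (edgeR adjusted p = 0.944, SE 0.32), Serping1 by 0.74 (edgeR adjusted p = 0.662, SE 0.46), Cd59a by 0.20 (edgeR adjusted p = 0.923, SE 0.35), C3 by 1.68 (edgeR adjusted p = 0.655, SE 1.02) and C5ar1 by -0.35 (edgeR adjusted p = 0.896, SE 0.52). These errors are wide enough that a difference between the tissues is not shown to be absent. The C1q difference came with a difference among the controls, since the summed C1q genes had 92.6 to 96.9 CPM in CA1 controls and 136 to 161 CPM in neocortex controls, while KO libraries reached 185 and 198 CPM in the CA1 and 174 to 201 CPM in the neocortex. Levels in the 2 tissues come from different kits. The call for C1qa held in 1 of the 11 fits that left out a library, and that for C1qc in 4, with differences of 0.58 to 0.73 for C1qa and 0.64 to 0.75 for C1qc.

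**Figure D3:**
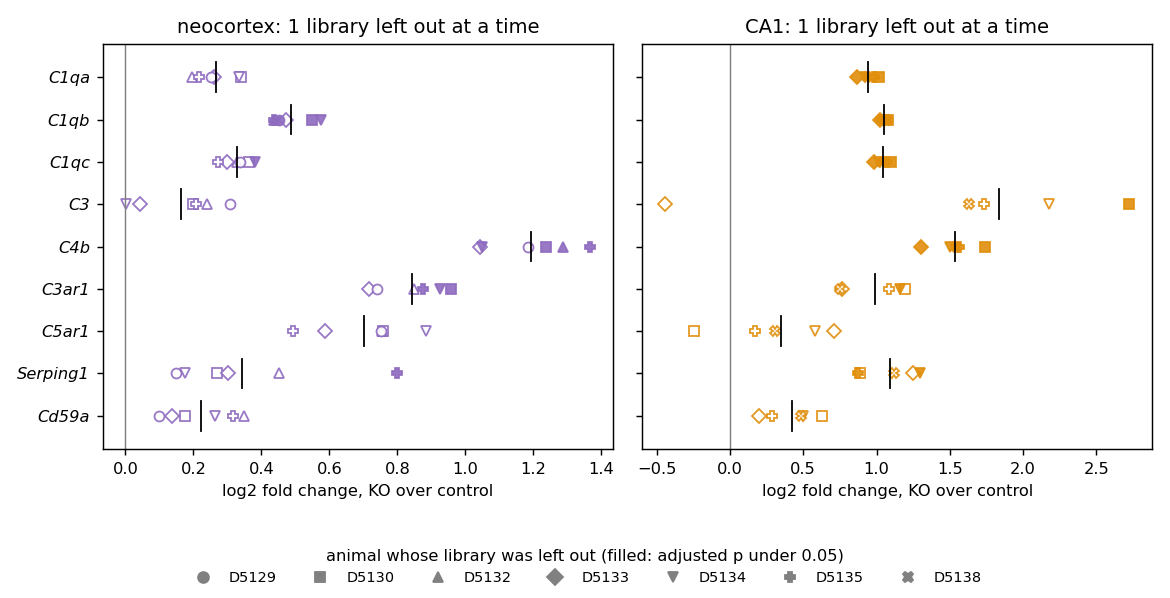
Log2 fold change of KO over control (x axis) for each gene when 1 library was left out, in the neocortex (left, 6 fits) and the CA1 (right, 5 fits). Symbols show the animal left out, filled where the edgeR adjusted p was under 0.05, and black ticks show the fit of all libraries, so that the C1q genes and C4b in the CA1 stay filled throughout and C3 in the CA1 spans -0.44 to 2.72.

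C1q was then set against genes of the cells that make it. The sum of 12 homeostatic microglia genes, such as the receptors Csf1r, P2ry12 and Cx3cr1, was 509.75 to 553 CPM in neocortex KO libraries and 505 to 548 CPM in controls, and 419 and 489 CPM in CA1 KO libraries against 369 to 392.4 CPM in controls. In the neocortex 0 of the 12 passed edgeR's test (3 higher and 1 lower at an unadjusted p under 0.05). In the CA1 4 of the 12 were called higher, among them Csf1r, Fcrls and Olfml3, and 0 lower. The lower gene in the neocortex was P2ry12 (log2 fold change -0.35, edgeR adjusted p = 0.0909), which gave -0.23 in the CA1 (edgeR adjusted p = 0.397). The median log2 fold change of the 12 was -0.049 in the neocortex and 0.18 in the CA1. Over all genes tested, 3049 of 16971 had an unadjusted p under 0.05 in the neocortex, and 2.47% were called higher in the CA1. The log2 ratio of the C1q sum to this sum was -1.48 ± 0.09 in neocortex KO libraries and -1.84 ± 0.15 in controls (SD, n = 3 each). The KO libraries were all higher, by 0.36 on average, with an exact two-sided permutation p of 0.1. In the CA1 the ratio was -1.24 ± 0.089 in KO libraries (SD, n = 2) and -1.996 ± 0.036 in controls (SD, n = 3), higher by 0.76 and again without overlap, with an exact permutation p of 0.1. Neither design can go below 0.1.

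**Figure D4:**
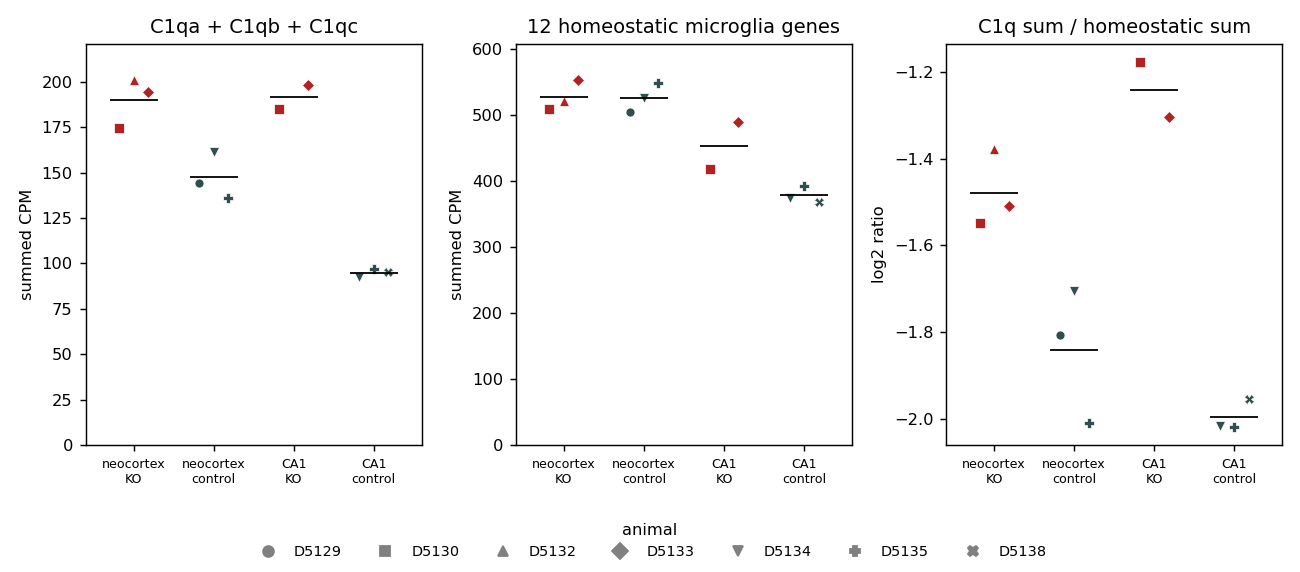
Summed CPM of the 3 C1q genes (left), summed CPM of 12 homeostatic microglia genes (middle) and the log2 of their ratio (right) in every library, KO groups (red) left of their controls (dark), with symbols for animals and a line at the group mean. The C1q sum and the ratio separate KO libraries from controls in both tissues, while the microglia sum overlaps in the neocortex, at 509.75 to 553 CPM in KO libraries and 505 to 548 CPM in controls.

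Genes of other cell states and types were compared too. Of all genes tested, edgeR called 1.51% higher and 1.20% lower in the neocortex, and 2.47% higher and 1.41% lower in the CA1. In the neocortex 3049 of 16971 had an unadjusted p under 0.05. Of 12 activated microglia genes, 9 were called higher in the neocortex and 10 in the CA1. This list was drawn from earlier results of these data, so its counts are not independent of them. Most of the list's summed CPM is Apoe, also an abundant astrocyte transcript. Without Apoe the other 11 genes summed to 155 to 183 CPM in neocortex KO libraries and 124 to 130 CPM in controls, and to 219 and 244 CPM in CA1 KO libraries and 125 to 145 CPM in controls. Border macrophage genes summed to 11.8 and 11.9 CPM in CA1 KO libraries and 3.70 to 5.64 CPM in controls, with Mrc1 and Cd163 called higher of 5 tested, and to 6.67 to 11.4 CPM in neocortex KO libraries and 6.87 to 8.52 CPM in controls. The 8 reactive astrocyte genes, a second source of C4b and C3, summed to 966 and 1077 CPM in CA1 KO libraries and 616 to 655 CPM in controls, with Gfap, Vim and Osmr called higher. In the neocortex they summed to 325 to 423 CPM in KO libraries and 251 to 285 CPM in controls, with 0 of 8 called by edgeR and 2 higher at an unadjusted p under 0.05. Most of the rise of the sum was Gfap, at a mean of 221 CPM in neocortex KO libraries and 111 CPM in controls. In the CA1 Gfap had a mean of 710 CPM in KO libraries and 364 CPM in controls. The median log2 fold change of the 8 genes was 0.056 in the neocortex and 0.96 in the CA1. Monocyte and neutrophil genes summed to at most 1.87 CPM in any library, and the neutrophil gene Ly6g was at 0 in all 11. All 6 oligodendrocyte genes were called lower in the CA1, where they summed to 2805 and 2820 CPM in KO libraries and 3389 to 4115 CPM in controls. In the neocortex 0 of the 6 were called, with overlapping sums of 2627 to 3122 CPM in KO libraries and 2903 to 3012 CPM in controls. Of the inhibitory neuron, oligodendrocyte precursor and choroid plexus genes, 0 were called in either tissue. Of 9 astrocyte and 7 endothelium genes, 0 were called in the neocortex and 1 of each list was called higher in the CA1. The 5 excitatory neuron genes, of the cells in which the Camk2a promoter is active, summed to 4723 to 4817 CPM in neocortex KO libraries and 5401 to 5479 CPM in controls, with Nrgn called lower. In the CA1 they summed to 4424 and 4851 CPM in KO libraries and 4919 to 5545 CPM in controls, with Neurod6 called lower. The CA1 identity genes summed to 310.02 and 326 CPM in CA1 KO libraries and 463 to 510 CPM in controls, with Wfs1 and Pou3f1 called lower. The part of these cells in the complement levels was not tested.

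The genes whose pattern was most like that of the C1q sum were found by Pearson's r over the 11 libraries, after centring each tissue on its mean, among the 11286 genes that averaged 5 CPM or more. The closest were Ctsd, a lysosomal protease (r = 0.987), the microglial receptor Trem2 (r = 0.983), Fcrls (r = 0.972), the lipid carrier Apoe (r = 0.97), Cbx6 (r = 0.968), Ly86 (r = 0.967), Cnn3 (r = 0.967) and Itgb5 (r = 0.966). Trem2 had 16.6 CPM in neocortex KO libraries and 12.04 CPM in controls, and 20.9 CPM in CA1 KO libraries and 10.3 CPM in controls, as group means. Among the homeostatic microglia genes, r ran between -0.57 for P2ry12 and 0.97 for Fcrls. The libraries share their genotype split, so these values describe a likeness over 11 points and nothing further.

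Of 52 other complement genes listed by name, 36 were tested in the neocortex, with a median log2 fold change of 0.078, and 38 in the CA1, with a median of 0.11. In the neocortex Itgax alone was called higher by edgeR, with 6 higher and 0 lower at an unadjusted p under 0.05. Of all 16971 genes tested there, 1.51% were called higher, and 3049 had an unadjusted p under 0.05 in either direction. The unadjusted count was thus close to the share over all genes. In the CA1 6 were higher, among them Itgax, Itgb2, Colec12, Clu and Vtn, and 1 was lower (Csmd3). Of all genes tested in the CA1, 2.47% were called higher and 1.41% lower. For the difference between the tissues 0 of 38 passed edgeR's test, with 6 higher and 1 lower at an unadjusted p under 0.05, and C1s1 and Vtn passed by DESeq2. In that comparison 1831 of all 19256 genes tested had an unadjusted p under 0.05 by edgeR, and DESeq2 called 69 higher and 95 lower.

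Receptors came first among them. Itgax, the alpha chain of complement receptor 4, had 1.82, 1.76 and 4.84 CPM in neocortex KO libraries, against 0.484, 0.328 and 0.422 CPM in controls, a log2 fold change of 2.76 (edgeR adjusted p = 0.0251, SE 0.47). In the CA1 it had 5.91 and 10.3 CPM in KO libraries, against 0.0757, 0.121 and 0.37 CPM in controls, which rest on 2, 4 and 13 reads, and the log2 fold change was 5.30 (edgeR adjusted p = 0.000103, SE 0.41). Itgb2, the beta chain that pairs with Itgax and Itgam, had 7.19 and 8.77 CPM in CA1 KO libraries and 4.62, 3.85 and 4.07 CPM in controls, with a log2 fold change of 0.93 (edgeR adjusted p = 0.00597, SE 0.16). Itgam, the alpha chain of complement receptor 3, had a log2 fold change of 0.017 in the CA1 (edgeR adjusted p = 0.958, SE 0.099) and -0.16 in the neocortex (edgeR adjusted p = 0.381, SE 0.09).

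Regulators and recognition molecules were also called in the CA1. Colec12, a collectin that binds sugars, had 11.1 and 10.6 CPM in KO libraries and 5.49, 7.19 and 5.71 CPM in controls (log2 fold change 0.82, edgeR adjusted p = 0.00728, SE 0.15). Vtn, which blocks the membrane attack complex in solution, had 76.1 and 63.4 CPM in KO libraries and 43.9, 49.8 and 46.6 CPM in controls (0.58, edgeR adjusted p = 0.00222, SE 0.086). Clu, another soluble inhibitor and an abundant astrocyte transcript, had 977 and 957 CPM in KO libraries and 808, 789 and 807 CPM in controls (0.27, edgeR adjusted p = 0.00701, SE 0.049). Csmd3, of a family of neuronal proteins with complement control domains, had 29.2 and 31.8 CPM in KO libraries and 36.3, 41.0 and 42.3 CPM in controls, and its log2 fold change was -0.39 (edgeR adjusted p = 0.0292, SE 0.091). In the neocortex these 4 did not pass, with Colec12 at 0.11, Vtn at 0.027, Clu at 0.23 and Csmd3 at -0.009 on the log2 scale. Clu lay near the threshold there (edgeR adjusted p = 0.0573, SE 0.058), with 862 to 965 CPM in KO libraries and 752 to 838 CPM in controls. Its difference between the tissues was 0.042 (edgeR adjusted p = 0.931, SE 0.079).

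The genes of the list with the highest mean CPM, a level that is not per length, that passed in no comparison were Sez6l2, Calr, Sez6l and Sez6. The log2 fold change of Sez6l2 was 0.079 in the neocortex and 0.066 in the CA1, and that of Calr was 0.082 in the neocortex and 0.043 in the CA1. Sez6l gave -0.0043 in the neocortex and -0.025 in the CA1, and Sez6 gave 0.16 in the neocortex and 0.056 in the CA1. Sez6 family proteins are neuronal inhibitors of complement, and calreticulin (Calr) binds C1q.

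**Figure D5:**
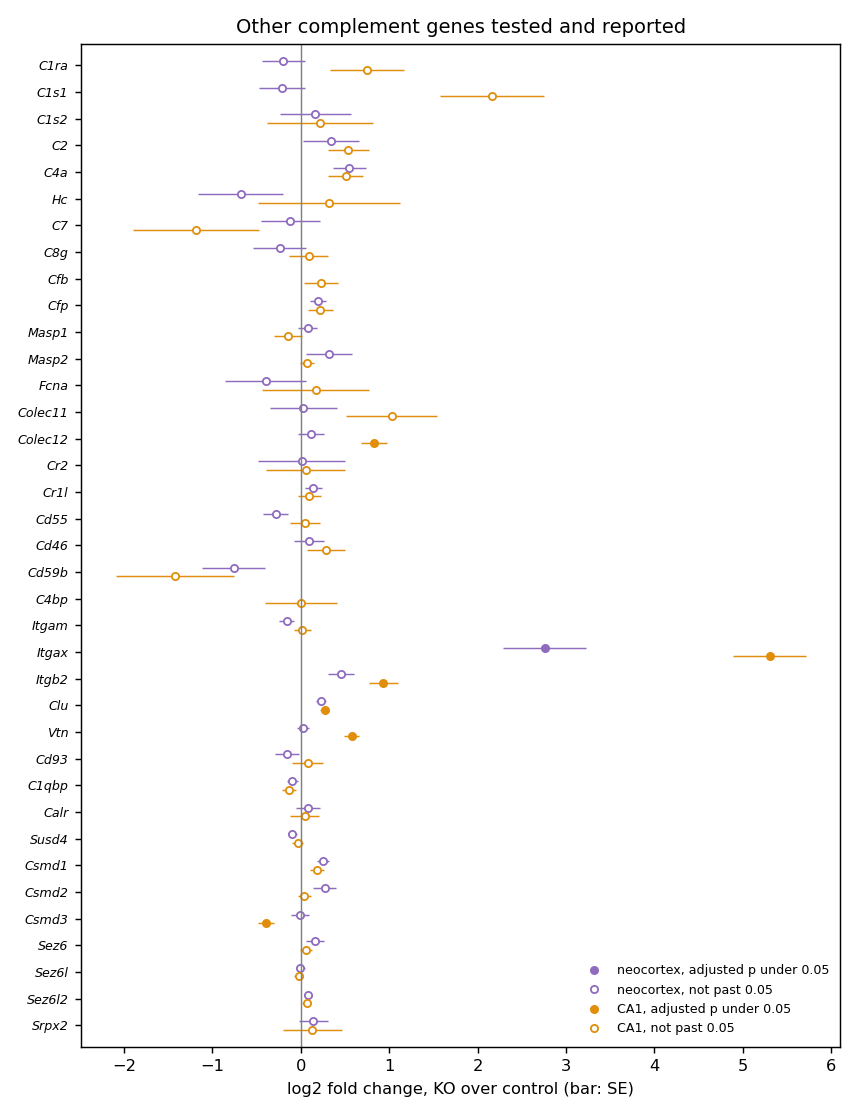
Log2 fold change of KO over control (x axis; bars are 1 SE) for the other complement genes that were tested and are reported here, in the neocortex (purple, 6 libraries) and the CA1 (orange, 5 libraries), filled where the edgeR adjusted p was under 0.05. Itgax stands apart at 2.76 in the neocortex and 5.30 in the CA1, and most of the other genes lie near 0.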

How the data were processed

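Polyadenylated RNA was sequenced from 11 libraries of 7 mice. The authors deposited 1 table of whole-number counts of reads per gene, with no normalization, made, per the submitters' processing notes, with GSNAP, bedtools, FastQC and SAMtools on GRCm38. The counting rule, its strand setting and the tool versions are not given in the sources used here. Per the labels' protocols the neocortex kit was stranded, with ERCC RNAs added, and the CA1 kit unstranded.

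The table held 39109 rows, 92 of them ERCC RNAs, which were left out of library sizes. Symbols came from GENCODE M21 by identifier (96.4% matched). Between libraries of 1 group the chi-square per gene was 9.99 to 22.1, so none was a copy. Each tissue was fitted alone, KO against control, by edgeR 4.0.16 (TMM, filterByExpr, robust quasi-likelihood F-test, two-sided) in R 4.3.3. P-values were adjusted by Benjamini-Hochberg over all genes tested, with a threshold of 0.05. The SE was the absolute log2 fold change divided by the square root of F. The difference between tissues was a contrast of 4 group means. The fits were tested on simulated data. For likeness, log2(CPM + 0.5) was used. Shared sequence was counted over 50-base stretches of each gene's longest coding transcript.

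Animal names in the labels pair the tissues of 4 animals. Deviations from the group means correlated with r of 0.059 to 0.078 within these animals and -0.096 to 0.027 between animals, and the block with the animal was an alternative. Other alternatives were DESeq2 1.42.0, other filters and scalings, ERCC sets and left-out libraries. The ERCC make-up sets were added after the data were seen. All 9 members were named, with the listed complement genes that passed in any comparison, the 4 with the highest mean CPM that passed in none and the 8 genes most like C1q. A few listed genes are not reported here individually but enter the counts and sums. C1s1, C1ra, C2, C4a and Itgam were named after their values were seen. The members and lists were chosen with earlier results of these data known.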

Additional observations from a re-analysis of the deposited data

Results flagged for a closer look

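The KO effect on C1qa and on C1qc passed the test of the difference between the tissues in the fit of all 11 libraries. The call for C1qa held in 1 of the 11 fits that left out a library and that for C1qc in 4, and 0 of the 9 genes passed with male libraries only or with only the animals that gave both tissues. The difference, CA1 minus neocortex, was 0.68 on the log2 scale for C1qa, with 58.3 and 64.7 CPM in CA1 KO libraries and 30.9 to 33.5 CPM in their controls, against 51.6 to 63.5 CPM in neocortex KO libraries and 44.6 to 52.5 CPM in theirs. For C1qc it was 0.71, with 55.3 and 59.4 CPM in CA1 KO libraries and 26.9 to 28.9 CPM in their controls, against 58.3 to 63.8 CPM in neocortex KO libraries and 44.8 to 52.2 CPM in theirs. The groups held 2 or 3 libraries, too few to test a single library as an outlier.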

How the results depend on the processing

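Of the 9 genes, 4 were called in the neocortex, 5 in the CA1 and 2 for the difference between tissues. Under the alternatives the CA1 count ran between 4 and 6. The neocortex count was 0 to 4 with 1 library left out, 3 with the ERCC make-up set as a term and 4 by DESeq2. It was 0 by edgeR when libraries were scaled by the ERCC RNAs. With the ERCC share set as a term it was 1. The share set splits libraries by the ERCC part of their counts, and sets controls D5129 and D5135 apart from all others. The KO effect in that fit thus rests on D5134 as its only control. It called 705 of all genes higher, against 256 in the main fit. ERCC scaling moved the median log2 fold change of all genes to 1.06, and relative to it the 9 genes lay between 0.19 (Cd59a) and 1.35 (C4b). The count for the difference was 0 to 2 with 1 library left out, 1 with a mean of at least 1 CPM, 1 without robust estimation, 0 with only the animals that gave both tissues and 0 with male libraries only, against 3 by DESeq2 and 3 with the animal as a replicate block. The block changed no call of another of the 9 genes than C1qb. Over all 19256 genes the block fit called 36 higher and 78 lower, and DESeq2 69 higher and 95 lower. The main fit called 11 higher and 7 lower. Of the other complement genes, 0 to 3 were called in the neocortex, 3 to 8 in the CA1 and 0 to 2 for the difference, 2 of them with the block.

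The C1q to microglia log2 ratio differed by 0.28 to 0.43 in the neocortex and by 0.69 to 0.82 in the CA1 with 1 library left out. Signs turned for genes that did not pass. C3 in the neocortex gave -0.19 within the first ERCC make-up set. With 1 library left out, C3 in the CA1 ran between -0.44 and 2.72 and C5ar1 in the CA1 between -0.24 and 0.71, and the differences between tissues ran between -0.62 and 2.52 for C3, -0.12 and 0.32 for C3ar1, -0.98 and 0.0025 for C5ar1 and -0.036 and 0.37 for Cd59a. The C3ar1 difference was -0.020 with only the animals that gave both tissues and -0.12 with male libraries only. The cause of these changes was not tested. C3 and C5ar1 had 10 to 67 reads in the neocortex, and the size of change detectable for them was not measured.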

Other observations

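CA1 KO library D5133 stood apart from KO library D5130 in C1s1 and C1ra too, early components of the cascade chosen after their values were seen. C1s1, which codes for a C1 protease, had 0.935 CPM in D5130 and 4.34 CPM in D5133, against 0.483 to 0.637 CPM in CA1 controls, from 32 and 109 reads in the KO libraries. C1ra, the partner protease, had 0.643 CPM in D5130 and 1.43 CPM in D5133, against 0.576 to 0.643 CPM in controls, from 22 and 36 reads in the KO libraries. C2, another early component, went the other way, with 3.74 CPM in D5130 and 3.03 CPM in D5133, against 1.88 to 2.81 CPM in controls. In the neocortex of the same 2 animals C1s1 had 0.826 CPM in D5130 and 0.667 CPM in D5133, against 0.843 to 1.08 CPM in controls.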
